A study of Mus musculus with 132 samples.

Results

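The osteoclast resorption genes are 10 genes that the multinucleated bone-resorbing cell uses to dissolve bone, and they were followed here in cortical bone of the mouse tibia. They were chosen by symbol, as the rows Acp5, Ctsk, Mmp9, Atp6v0d2, Calcr, Ocstamp, Dcstamp, Oscar, Tcirg1 and Clcn7 of a table of 23412 gene symbols, and all 10 were found. The study loaded the left tibia of 22 mice (C57Bl/6J, female, 10 weeks old), 1200 cycles of compression per day at 4 Hz with peaks of 9 N, and kept the right tibia of the same mouse as the contralateral control. No mouse was left without loading, so every control limb belonged to a loaded animal. Cancellous bone was removed, and the cortex of each limb was cut into the metaphyseal shell, the proximal diaphysis and the mid-diaphysis. Each piece gave a library of 3′ mRNA sequencing, 6 per mouse. After a single bout, loaded and control limbs were taken at 1 h (5 mice), 3 h (4 mice) and 24 h (4 mice). Another 5 mice were loaded on 5 consecutive days and killed on day 8 (5d), and 4 mice were loaded on 7 consecutive days and killed 24 h after the last bout (7d). The comparisons ask where along the cortex the genes stood higher, and whether they differed between the loaded and the control limb of a mouse.

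Osteoclasts form when precursors of the monocyte and macrophage lineage fuse, under the cytokines M-CSF and RANKL and the transcription factor NFATc1. The cell seals itself to the bone surface, pumps protons and chloride into the space below it to dissolve mineral, and secretes proteases that cut the exposed collagen. In long bones osteoclasts are abundant where the growing metaphysis is being reshaped, and mechanical loading is known to act on both bone formation and resorption. The genes have separate roles in this cell. Acp5 encodes tartrate-resistant acid phosphatase, Ctsk the collagen-cutting protease cathepsin K, and Mmp9 the gelatinase matrix metalloproteinase 9. Tcirg1 and Atp6v0d2 encode the a3 and d2 subunits of the osteoclast proton pump, and Clcn7 encodes the chloride and proton exchanger that works beside it. Dcstamp and Ocstamp encode membrane proteins needed for fusion, Oscar a collagen-binding receptor that costimulates differentiation, and Calcr the calcitonin receptor, through which calcitonin inhibits resorption. In the GENCODE annotation of GRCm38, the build of the deposited counts, Acp5 lies at chr9:22126727-22135711, Ctsk at chr3:95499256-95509362 and Mmp9 at chr2:164940780-164955850. Ocstamp lies on the same chromosome as Mmp9, at chr2:165393760-165400405, Dcstamp at chr15:39745930-39760938 and Tcirg1 at chr19:3896050-3907133. Acp5 overlaps the antisense gene 6530413G14Rik, which has no row of its own among the deposited counts. As the strand setting of the counting is not given in the sources used here, reads of the 2 cannot be told apart.

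Promoter windows were looked up because several of these genes are textbook targets of NFATc1, PU.1 and MITF, so letters of the kind that such factors prefer can be seen in place. RefSeq windows (build GRCm38.p6, from 250 bases before to 50 bases after a transcript start) were found for 6 of the 10 genes, 12 windows in all. The sequences below run 5′ to 3′ on the strand of the gene. Capitals mark matches on either strand to PU.1 (GAGGAAG), a loose form of the M-box of MITF (TCANGTG) or the NFAT core (GGAAA). The loose form, called M-box below, takes any base at N, so a match need not hold the letters that MITF prefers. They are shown for a protease, a receptor and the phosphatase, each in a window that holds matches. The Ctsk window is chr3:95498960-95499259 on the plus strand, the Oscar window chr7:3616108-3616407 and the Acp5 window chr9:22130549-22130848, both on the minus strand.
Ctsk: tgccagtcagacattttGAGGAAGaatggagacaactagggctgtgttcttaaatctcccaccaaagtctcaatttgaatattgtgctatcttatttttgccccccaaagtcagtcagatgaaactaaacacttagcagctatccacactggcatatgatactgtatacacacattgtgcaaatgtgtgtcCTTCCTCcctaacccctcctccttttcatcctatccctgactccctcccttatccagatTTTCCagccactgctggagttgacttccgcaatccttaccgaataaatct
Oscar: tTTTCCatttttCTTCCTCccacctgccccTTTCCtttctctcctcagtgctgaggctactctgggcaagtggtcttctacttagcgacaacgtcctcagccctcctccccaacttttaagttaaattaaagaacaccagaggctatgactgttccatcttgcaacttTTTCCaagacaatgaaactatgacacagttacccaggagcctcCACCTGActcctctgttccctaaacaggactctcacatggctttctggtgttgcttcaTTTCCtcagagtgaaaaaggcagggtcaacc
Acp5: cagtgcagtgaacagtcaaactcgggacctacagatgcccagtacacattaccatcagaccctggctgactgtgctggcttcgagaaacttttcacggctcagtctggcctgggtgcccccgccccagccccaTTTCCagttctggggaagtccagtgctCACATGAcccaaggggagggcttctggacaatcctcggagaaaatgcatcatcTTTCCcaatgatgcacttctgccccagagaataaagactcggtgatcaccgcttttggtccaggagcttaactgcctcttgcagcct
Positions are counted from 0 at the start base. In the Ctsk window PU.1 letters begin at -233 and -59. In the Oscar window PU.1 letters begin at -238 and the M-box, as CACCTGA, at -39, and the NFAT core occurs 4 times. In the Acp5 window, one of 3 for this gene, the M-box begins at -90 and the NFAT core at -117 and -37. Of 32851 promoter windows of this length, 13.63% held the PU.1 letters, 14.31% the M-box and 61.34% the NFAT core. Of the 12 windows of these genes 3 held the PU.1 letters, 6 the M-box and 8 the NFAT core. The AP-1 letters TGANTCA, which 7.81% of windows held, were in 0 of the 12. These matches describe letters only, and no binding was measured.

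Levels are the deposited normalised read counts. The libraries held 290325 to 5410458 reads (median 1698310). The osteoblast marker Col1a1 and the other 5 genes of an osteoblast list summed to a median of 95171.8 per library, and 4 osteocyte genes to 1086.27, so bone cells were present, but marrow markers were too. The summed level of 10 neutrophil genes had a median of 27211.6 in the control shell, 22077.8 in the control proximal diaphysis and 29485.3 in the control mid-diaphysis. In bulk bone, fewer cells of a type and less RNA per cell cannot be told apart. The libraries were not equally clean. In 4 mid-diaphysis libraries Msln, a mesothelial gene, stood at 340 to 503 and the 10 genes summed to only 181 to 554. They were the loaded limb of mouse 2 and the control limb of mouse 3 at 1 h, and the loaded limbs of mice 4 and 5 at 5d. Another 6 libraries had few genes detected, 7929 to 9820, and none of these 10 libraries belonged to the 24 h group. In the control limb of mouse 2 at 3 h, 6 chondrocyte genes summed to 719 in the library labelled shell and 2058 in the one labelled mid-diaphysis, and the 10 resorption genes summed to 3615 and 13236, the reverse of the usual order.

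In control limbs the resorption genes were higher toward the metaphysis. Acp5, Mmp9, Ocstamp, Dcstamp, Tcirg1 and Ctsk stood above the mid-diaphysis in the shell of the same limb, by 1.7-fold to 3.6-fold, and all 10 genes had a positive difference. These 6 of 10 passed limma with Benjamini-Hochberg adjustment over 13050 genes, where 6.71% of all genes were called higher and 0.728% lower, and 34% of all genes had a negative difference. The median log2 difference was 1.02 over the 10 genes and 0.17 over all genes. Without mouse 2 of the 3 h group 8 of the 10 passed, Atp6v0d2 and Calcr in addition, and without the 4 libraries high in Msln 5 passed, with Ctsk at adjusted p = 0.0587.

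**Figure D1:**
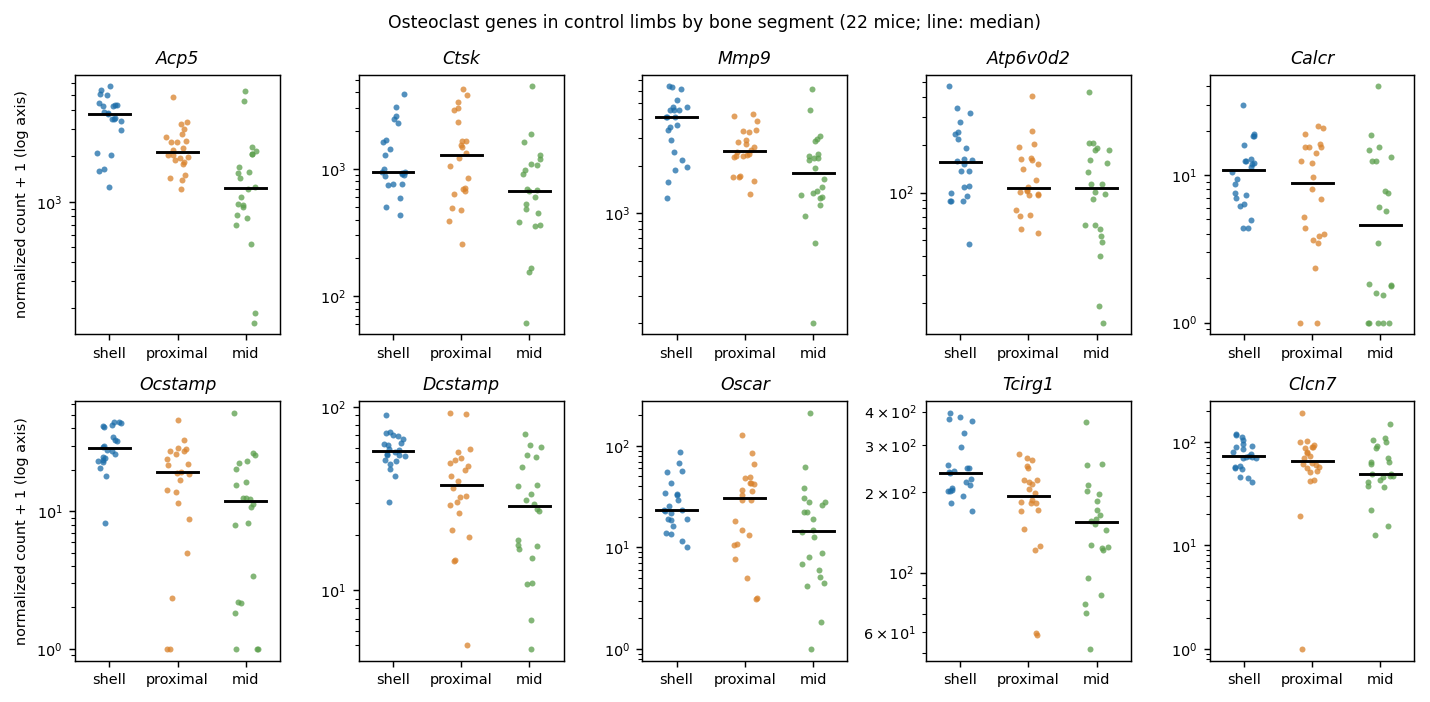
Normalised count + 1 (log axis) of each of the 10 genes in control limbs of 22 mice, by segment; each point is 1 library and the line is the median. The medians of 7 genes step down from shell through proximal to mid-diaphysis, while Ctsk and Oscar have their highest median in the proximal diaphysis and Atp6v0d2 has close medians in the proximal (105.4) and mid-diaphysis (105.97).

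Among the secreted enzymes, Acp5 ranged over 1251 to 5741 with a median of 3793 in the control shell, over 1206 to 4856 with a median of 2109 in proximal libraries, and over 159 to 5321 with a median of 1228 in mid-diaphyseal libraries. The segments overlapped between mice, but within a mouse the shell was above the mid-diaphysis in 19 of 22, with a log2 difference of 1.54 ± 0.26 (SE, limma adjusted p = 0.00031). Acp5 was also higher in the shell than in the proximal diaphysis, by 0.62 ± 0.14 (limma adjusted p = 0.00828, 19 of 22 mice). Mmp9 averaged 3834 ± 1520 in shell, 2640 ± 816 in proximal and 2069 ± 1317 in mid-diaphyseal libraries (SD, n = 22). Its shell to mid-diaphysis difference was 1.04 ± 0.25 (limma adjusted p = 0.00907, 17 of 22 mice). Mmp9 is also made by neutrophils. Its level followed the neutrophil list with r = 0.52 over the 66 control libraries centred on their segment. This was the highest value among the 10 genes, against 0.46 for Atp6v0d2, 0.45 for Tcirg1 and 0.30 for Acp5. Mmp9 also followed other marrow lists, with r = 0.47 for the B cell list and 0.42 for the macrophage list. Ctsk followed another order. Its median was 943 in shell, 1276 in proximal and 676 in mid-diaphyseal libraries. Shell exceeded mid-diaphysis by 0.89 ± 0.26 (limma adjusted p = 0.0298, 16 of 22 mice), and between shell and proximal diaphysis the difference was -0.03 ± 0.16 (limma adjusted p = 0.918), with 11 of 22 mice higher in the shell.

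The acid-secreting machinery had the 3 smallest differences of the 10. Tcirg1 averaged 254.5 ± 69.9 in shell, 188.5 ± 60.0 in proximal and 157.5 ± 72.0 in mid-diaphyseal libraries of control limbs (SD, n = 22). Shell exceeded mid-diaphysis by 0.78 ± 0.18 (limma adjusted p = 0.005, 18 of 22 mice). Atp6v0d2 had medians of 154.7 in shell, 105.4 in proximal and 105.97 in mid-diaphyseal libraries, and its difference of 0.71 ± 0.25 between shell and mid-diaphysis had an adjusted p of 0.0815. Clcn7 had medians of 71.7 in shell, 64.8 in proximal and 47.8 in mid-diaphyseal libraries, with a difference of 0.49 ± 0.21 and an adjusted p of 0.148.

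Both fusion genes passed. Ocstamp ranged over 7.23 to 43.7 with a median of 27.7 in the control shell, over 0 to 44.9 with a median of 18.2 in proximal libraries, and over 0 to 51.0 with a median of 10.8 in mid-diaphyseal libraries. Its log2 difference between shell and mid-diaphysis was 1.86 ± 0.39 (limma adjusted p = 0.00265, 20 of 22 mice), the largest of the 10. Ocstamp had a median of 15.5 reads per library and was at 0 in 11 libraries, so single values carry a large counting error. Dcstamp averaged 57.8 ± 12.5 in shell, 39.5 ± 22.2 in proximal and 30.4 ± 19.4 in mid-diaphyseal libraries (SD, n = 22), with shell above mid-diaphysis by 1.19 ± 0.25 (limma adjusted p = 0.00331). The receptors did not pass. Calcr, with a median of 6 reads per library, had medians of 9.88 in shell, 7.84 in proximal and 3.58 in mid-diaphyseal libraries, and a difference of 1.29 ± 0.42 with adjusted p = 0.0516. Oscar had medians of 22.4 in shell, 29.9 in proximal and 13.5 in mid-diaphyseal libraries, and a difference of 0.99 ± 0.37 with adjusted p = 0.0929.

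Between neighbouring segments the differences were smaller. Shell against proximal diaphysis, Acp5, Mmp9, Ocstamp, Dcstamp and Tcirg1 passed, 5 of 10, where 4.63% of all genes were called higher. Dcstamp was higher by 0.75 ± 0.19 (limma adjusted p = 0.0179), Ocstamp by 1.07 ± 0.33 (0.0495), Mmp9 by 0.47 (0.0441) and Tcirg1 by 0.48 (0.044). This count moved between 2 and 6 when 1 mouse was left out, and it was 0, with 0 of all 13050 genes called, when the mean log2 level of the marrow lists was a covariate. It was also 0, with 172 of all genes called, in 1 model of all libraries with the mouse as an estimated correlation, and 1 with no pairing. Proximal against mid-diaphysis, all 10 differences were positive but limma called 0 of the 10, with Acp5 at 0.91 (adjusted p = 0.108) and Ctsk at 0.92 (adjusted p = 0.214). In that comparison 0.199% of all genes were called in either direction and 49.2% had a negative difference, and edgeR also called 0 of the 10.

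Other gene lists were compared in the same way. Of 14 other measured osteoclast genes, 8 were higher in shell than mid-diaphysis of control limbs and none was lower, with a median log2 difference of 0.69. They were Itgb3, an integrin chain of the sealing zone (1.22 ± 0.20), Csf1r, the M-CSF receptor (1.21 ± 0.24), Tnfrsf11a, the RANKL receptor (1.28 ± 0.32), Nfatc1 (0.68 ± 0.18), its upstream adaptor Traf6 (0.99 ± 0.31), the kinase gene Src (0.78 ± 0.21), the bicarbonate and chloride exchanger gene Slc4a2 (0.96 ± 0.24) and the vesicle gene Snx10 (0.55 ± 0.17). Car2, the carbonic anhydrase that supplies protons, was at -0.18 ± 0.20. Of 15 proton pump subunits that many cells share, 7 were higher, led by the accessory subunit Atp6ap1 at 1.101 ± 0.165, with a median of 0.45. In the same comparison 2 of 11 macrophage and monocyte genes were higher, C1qa and C1qb, with a median of 0.38. None of 10 neutrophil genes passed by limma, with a median of -0.06 and 1 at an unadjusted p under 0.05. None of 5 erythroid genes passed either, with a median of 0.22. Lists of other cells moved with the shell as much or more, since 6 of 6 megakaryocyte genes (median 1.30), 5 of 6 endothelial genes (1.36), 3 of 4 adipocyte genes (1.51) and 5 of 6 chondrocyte genes (3.42) were higher. How far the cell mix of the segments accounts for the resorption genes was not tested. With the macrophage list as a covariate, an alternative chosen after seeing the data, 5 of the 10 genes passed. Acp5 was then at 1.32 (limma adjusted p = 0.0011), and Ctsk had an adjusted p of 0.0851.

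Each sum of the 10 genes given here is mostly Acp5, Mmp9 and Ctsk. Their medians were 2048.5, 2257 and 945.5 reads per library, against 175.5 for Tcirg1, the next highest. Summed per library, the 10 genes gave a shell to mid-diaphysis ratio with a median of 2.43 in control limbs, above 1 in 19 of 22 mice. The same ratio was 1.42 for the other osteoclast genes, 1.21 for the macrophage genes (above 1 in 13 of 22) and 1.00 for the neutrophil genes (11 of 22). Lists of some other cells came close to the 10 genes. Their ratios were 2.42 for the adipocyte genes (above 1 in 19 of 22) and 2.20 for the megakaryocyte genes (18 of 22). Endothelial genes had 1.92 (21 of 22) and chondrocyte genes 1.71 (16 of 22). The 4 osteocyte genes summed to a ratio of 0.512, above 1 in 3 of 22 mice. Of these 4 Sost, the Wnt inhibitor sclerostin, was lower in the shell, at -1.64 ± 0.32 (limma adjusted p = 0.0018), and the other 3 did not pass, with Dmp1 at -0.35, Mepe at -0.29 and Phex at 0.09.

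**Figure D2:**
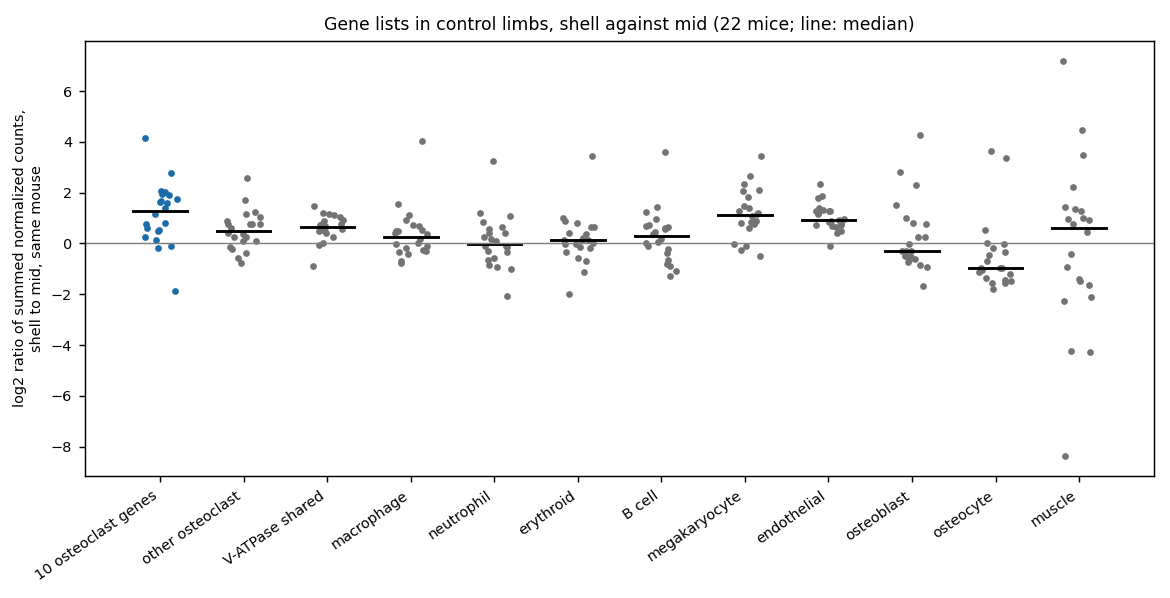
Log2 ratio of summed normalised counts, shell to mid-diaphysis of the same control limb, for 12 gene lists (horizontal axis); each point is 1 of 22 mice and the line is the median. The 10 resorption genes, whose sum is mostly Acp5, Mmp9 and Ctsk, are above 0 in 19 mice. The megakaryocyte list is above 0 in 18 mice and the endothelial list in 21. The neutrophil list is spread evenly around 0 and the osteocyte list is mostly below it. Adipocyte and chondrocyte lists are not drawn.

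The loaded limbs of the same mice showed the gradient again. There 9 of the 10 genes, all but Clcn7, were higher in shell than mid-diaphysis, where 9.39% of all genes were called higher. Acp5 was higher by 2.00 ± 0.34 (limma adjusted p = 4.0e-04, n = 22), Dcstamp by 1.86 (0.00271) and Oscar by 1.84 (0.00453). The summed genes had a shell to mid-diaphysis ratio of 2.78 in loaded and 2.43 in control limbs, above 1 in 19 of 22 mice in both. Of the 4 libraries high in Msln, 3 were loaded mid-diaphyses, and without the 4 libraries 4 of the 10 genes passed. Shell against proximal diaphysis, Acp5 alone passed at 0.67 (adjusted p = 0.0424), with 2.33% of all genes called higher. This call was lost in the model with an estimated correlation, with no pairing, with no filter on low values, with the marrow covariate and on leaving out any 1 of 13 mice. Proximal against mid-diaphysis it was again Acp5 alone, at 1.34 (adjusted p = 0.0346), with 1.49% of genes called higher, and this call was lost without the 4 libraries.

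At 24 h after a single bout the resorption genes stood lower in loaded than in control limbs in most pairs, but no gene of the 10 passed the test over all genes. The 10 genes summed to less in the loaded limb in 12 of 12 pairs of libraries, with a median ratio of 0.564 and a range of 0.208 to 0.908. This sum is mostly Acp5, Mmp9 and Ctsk, so it is not separate from the counts of these genes. Acp5 and Mmp9 were each lower in 12 of 12 pairs, which 0.0843% of all genes reached. Atp6v0d2 and Tcirg1 were lower in 11 of 12 pairs, which 0.697% of genes reached or exceeded, and Ctsk, Dcstamp and Clcn7 in 10, which 2.91% reached or exceeded. Calcr and Ocstamp were lower in 9 of 12 pairs, against 8.93% of all genes, and Oscar in 8, against 20.5%. The 12 pairs come from only 4 mice.

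Acp5 in the shell had values of 3339, 4845, 1905 and 1947 in loaded limbs, against 5103, 5016, 5741 and 3751 in the control limbs of the same 4 mice. In the proximal diaphysis Acp5 had 1069, 1173, 967 and 850 in loaded limbs and 2023, 2800, 1957 and 1427 in control limbs. In the mid-diaphysis it had 358, 751, 488 and 638 in loaded limbs and 1077, 1250, 1433 and 780 in control limbs. Every loaded value was below every control value in both diaphyseal segments, while in the shell loaded mouse 2 overlapped the controls. On average over the 3 segments Acp5 differed by -0.94 ± 0.36 (log2 ± SE, n = 4 mice, limma unadjusted p = 0.013, adjusted p = 1). The averages of the 4 mice were -1.04, -0.68, -1.39 and -0.66. Here and in the other loading tests the SE rests on 1 spread shared by the 5 times. That spread includes the libraries high in Msln at 1 h and 5d, so it is not the spread of these 4 mice alone.

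Mmp9 in the shell had 4115, 6057, 650 and 4235 in loaded limbs and 6176, 6315, 6410 and 4743 in control limbs. In the proximal diaphysis it had 1552, 1620, 409 and 1246 in loaded limbs and 2515, 3363, 2738 and 1693 in control limbs. In the mid-diaphysis it had 401, 784, 958 and 825 in loaded limbs and 1657, 1303, 2316 and 1123 in control limbs. Loaded and control limbs were again fully separate in the diaphysis, and loaded mouse 3 was far below the other loaded limbs in the shell and proximal diaphysis. The average over segments was -1.13 ± 0.37 (limma unadjusted p = 0.0045, adjusted p = 1).

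The pump subunits follow. Atp6v0d2 in the proximal diaphysis had 27.3, 57.4, 32.6 and 43.9 in loaded limbs and 71.0, 141, 96.6 and 57.9 in control limbs, and in the mid-diaphysis 22.1, 46.9, 45.6 and 21.04 in loaded limbs and 48.1, 191, 89.5 and 61.3 in control limbs. The 2 sets did not overlap in either segment, and in the shell they did. Its average over segments, -1.12 ± 0.30, had the smallest unadjusted p of the 10, 0.00083 (limma adjusted p = 0.945). Tcirg1 in the proximal diaphysis had 114.01, 135, 147 and 161 in loaded limbs and 182, 217, 266 and 213 in control limbs, and in the mid-diaphysis 47.8, 70.4, 104.9 and 90.5 in loaded limbs and 124, 122, 184 and 163 in control limbs. It too was separate in both diaphyseal segments, and its average was -0.61 ± 0.28 (limma unadjusted p = 0.035).

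All loaded values lay below all control values for Acp5, Mmp9, Atp6v0d2 and Tcirg1 in the proximal diaphysis, 4 of 10, against 1.66% of all genes, and for the same 4 in the mid-diaphysis, against 1.83%. In the shell 0 of the 10 were separated in this way, against 0.513%.

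**Figure D3:**
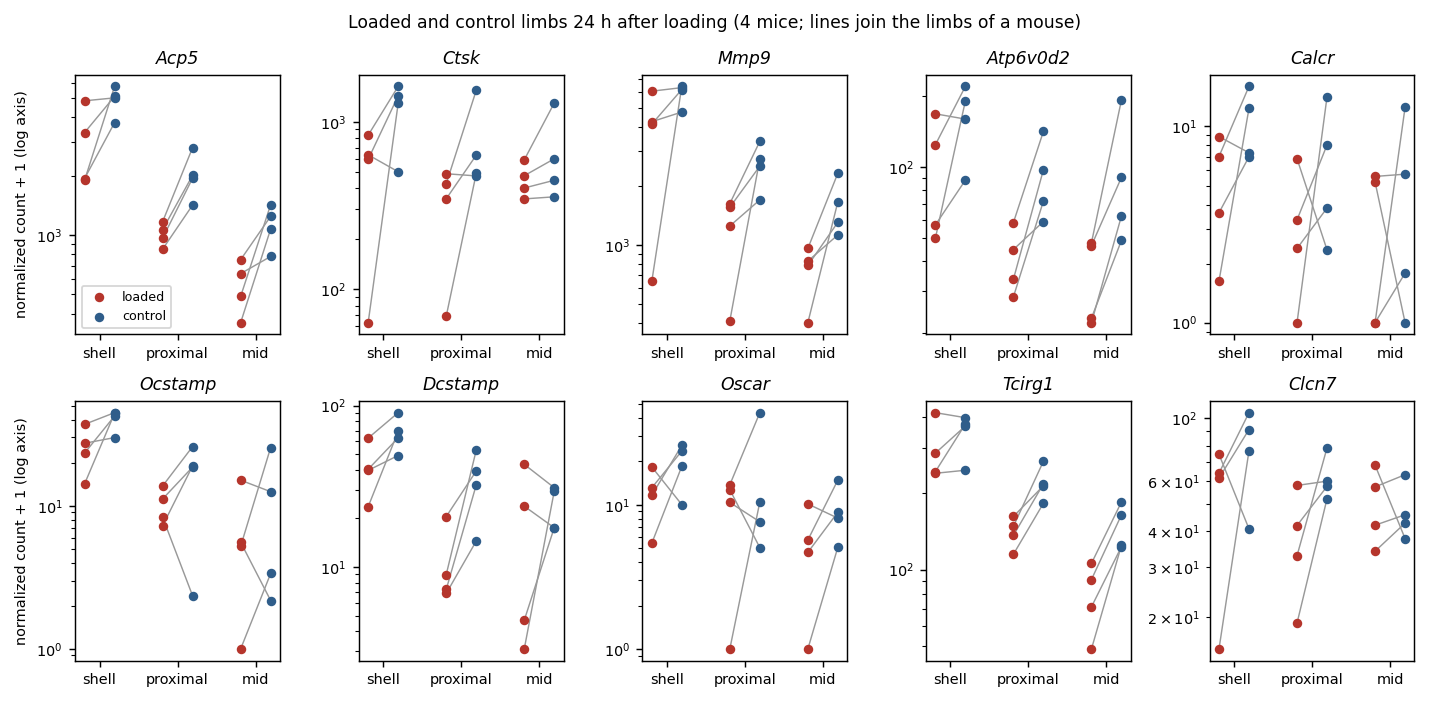
Normalised count + 1 (log axis) of each of the 10 genes at 24 h in loaded (red) and control (blue) limbs of 4 mice, by segment; lines join the 2 limbs of a mouse. Acp5 and Mmp9 are lower in the loaded limb in all 12 pairs, and in the diaphyseal segments their loaded and control points do not overlap.

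Ctsk had no such separation. In the shell it had 596, 831, 62.3 and 634 in loaded limbs and 1428, 1626, 1292 and 502 in control limbs, and in the proximal diaphysis 346, 425, 68.1 and 489 in loaded limbs and 631, 1539, 490 and 474 in control limbs. Mouse 4 was higher in the loaded limb in both, and mouse 3 had the lowest loaded values. Ctsk averaged -1.12 ± 0.37 over segments (limma unadjusted p = 0.0053). Dcstamp in the shell had 39.3, 61.9, 22.6 and 38.7 in loaded limbs and 62.2, 89.5, 68.3 and 48.1 in control limbs, and its average was -1.17 ± 0.41 (limma unadjusted p = 0.0082). The other 4 averages were -0.93 ± 0.53 for Calcr, -0.87 ± 0.49 for Oscar, -0.55 ± 0.48 for Ocstamp and -0.47 ± 0.40 for Clcn7, none under an unadjusted p of 0.05.

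Over the 3 segments all 10 genes were negative at 24 h, as were 52.7% of all genes, with a median of -0.94 against -0.02 over all genes. At an unadjusted p under 0.05 there were 6 of 10, against 3.2% of all genes (418 of 13050) in either direction. limma called 0 of the 10 after adjustment and 1 gene of all 13050 (0.00766%), and edgeR on the recovered reads also called 0 of the 10. By segment the median over the 10 was -0.78 for shell, -1.02 for proximal and -0.99 for mid-diaphysis. All 10 were negative in the shell (46.8% of all genes), all 10 in the proximal (53.2%) and 9 in the mid-diaphysis (51.8%). Without mouse 3 the median over segments was -0.68, still with 10 of 10 negative, and 2 genes instead of 6 had an unadjusted p under 0.05, and the shell median was -0.44. The loaded limb of mouse 3 also had high skeletal muscle sums, 5932 for the shell and 32125 for the proximal diaphysis, against 941, 905 and 1015 and against 70, 736 and 594 in the other 3 loaded limbs, and the part of this in the result was not tested.

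No gene of the other lists passed after adjustment by limma at 24 h. The other osteoclast genes summed to less in the loaded limb in 12 of 12 pairs (median ratio 0.712), and 12 of 14 had a negative average over segments, with a median of -0.42. Snx10 at -0.82 ± 0.22 and Csf1r at -0.73 ± 0.26 were the 2 with an unadjusted p under 0.05. Of the 15 shared pump subunits 12 were negative (median -0.42), and 7 had an unadjusted p under 0.05, led by Atp6v1b2 at -1.08 ± 0.28. The macrophage genes summed to less in 8 of 12 pairs, with a median ratio of 0.929, and 10 of 11 were negative with a median of -0.26. The neutrophil genes summed to less in 9 of 12 pairs (0.797), and 10 of 10 were negative with a median of -0.25. The neutrophil median was -0.56 in the proximal diaphysis and near 0 in the shell. B cell genes had a median of -0.60, erythroid genes -0.10, osteoblast genes 0.06, osteocyte genes 0.15 and muscle genes -1.105. The 4 adipocyte genes had a median of -0.50, with Adipoq at -0.68 and Lpl at -0.54 under an unadjusted p of 0.05. Megakaryocyte, endothelial and chondrocyte genes had medians of -0.21, -0.18 and -0.13. With the mean level of the marrow lists as a covariate the median of the 10 genes was -0.72, and with the macrophage list it was -0.57, with 10 of 10 negative in both. The part of marrow content in the lower values of the 10 genes was not tested beyond this.

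**Figure D4:**
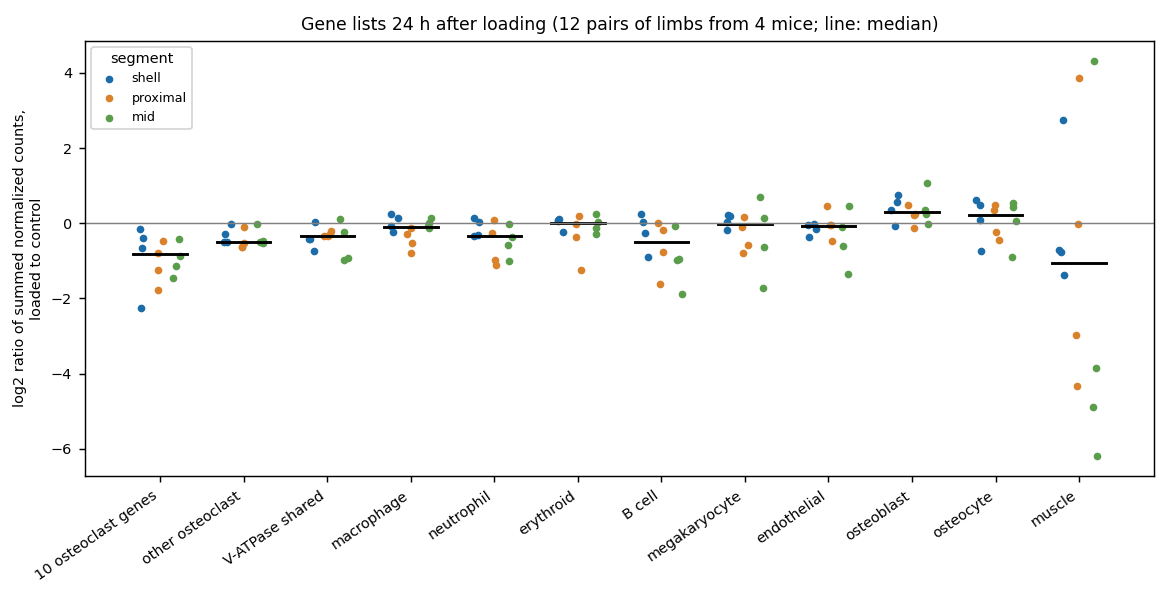
Log2 ratio of summed normalised counts, loaded to control limb at 24 h, for 12 gene lists (horizontal axis); each point is 1 of 12 pairs of limbs from 4 mice, coloured by segment, and the line is the median. The 10 resorption genes and the other osteoclast genes are below 0 in 12 of 12 pairs, the macrophage genes in 8 and the erythroid genes in 6. The sum of the 10 is mostly Acp5, Mmp9 and Ctsk.

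The same counts were taken at the other times. At 1 h the 10 genes summed to less in the loaded limb in 12 of 15 pairs (median ratio 0.791), at 3 h in 8 of 12 (0.906), at 5d in 6 of 15 (1.07) and at 7d in 6 of 12 (0.948). Without the pairs that hold one of the 10 libraries that stood apart these counts were 10 of 12 at 1 h, 7 of 11 at 3 h, 4 of 12 at 5d and 5 of 10 at 7d. Mmp9, Calcr, Oscar and Tcirg1 were each lower in 12 of 15 pairs at 1 h, which 2.2% of all genes reached or exceeded. limma called 0 of the 10 at any time, in each segment and in their average, and edgeR also called 0 of the 10. Of all genes limma called 0% or 0.00766% in each segment at each time, and in the average 0.0153% at 1 h, 0% at 3 h, 0.0383% at 5d and 0.123% at 7d. At 1 h the proximal diaphysis had all 10 genes negative, against 50.5% of all genes, with a median of -0.88 and 3 at an unadjusted p under 0.05, against 4.8% of all genes in either direction. Without mouse 5, whose differences were -2.78 for Acp5, -2.87 for Ctsk and -4.45 for Dcstamp, the median was -0.38, with 10 of 10 negative and 0 at an unadjusted p under 0.05. Acp5 was at -1.002 ± 0.319 there (limma unadjusted p = 0.0043, lower in 5 of 5 mice). Oscar in that segment had 28.4, 16.5, 25.7, 24.999 and 5.46 in loaded limbs and 65.8, 41.01, 42.4, 36.1 and 83.6 in control limbs, all loaded values below all control values, which 0.33% of genes showed. At 3 h no gene of the 10 had an unadjusted limma p under 0.05, against 4.15% of all genes in shell, 10.1% in proximal and 2.95% in mid-diaphysis.

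On day 8 after 5 daily bouts the proximal diaphysis showed the opposite sign, with all 10 genes positive and a median of 0.48, where 45.7% of all genes were negative. Ctsk had 1177, 754, 3212, 2240 and 1560 in loaded limbs and 257, 856, 1215, 391 and 1475 in control limbs, higher in 4 of 5 mice with overlapping values (1.20 ± 0.42, limma unadjusted p = 0.0083, adjusted p = 1). Atp6v0d2 had 130, 147, 343, 319 and 90.9 in loaded limbs and 95.4, 99.9, 164, 54.6 and 96.2 in control limbs (0.90 ± 0.38, limma unadjusted p = 0.027). Without mouse 4 the median was 0.31, with 1 of 10 negative. These 2 of 10 stood against 2.79% of all genes at an unadjusted p under 0.05 in either direction. The mid-diaphysis at 5d had 9 of 10 negative, against 50.5% of all genes, with a median of -0.92, but this rested on the loaded libraries of mice 4 and 5 that were high in Msln. Without the 4 libraries 1 of 10 was negative and the median was 0.43 over 3 mice.

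After 7 daily bouts the signs varied by segment. In the shell 8 of 10 genes were positive (median 0.26) and in the proximal diaphysis 7 of 10 (0.13, against 0.29 over all genes), while in the mid-diaphysis 9 of 10 were negative (-0.90). Leaving out 1 mouse moved these medians over 0.10 to 0.47 in shell, -0.0016 to 0.45 in proximal and -1.50 to -0.70 in mid-diaphysis. Without the 10 libraries that stood apart, which include the proximal control library of mouse 2 and the mid-diaphyseal control library of mouse 4, the proximal median was -0.0016 with 5 of 10 negative and the mid-diaphyseal median -0.78 with 8 of 10 negative. With a covariate the mid-diaphyseal median was -1.40 (marrow), -0.37 (macrophage) and -0.21 (muscle, 5 of 10 negative), and the proximal one -0.021 with the macrophage covariate. Of all genes 50.8% were negative in the shell, 36.5% in the proximal and 47.8% in the mid-diaphysis. Acp5 in the mid-diaphysis had 136, 1177, 1068 and 585 in loaded limbs and 2275, 1206, 2157 and 1688 in control limbs, all loaded values below all control values, which 0.858% of genes showed, with a difference of -1.66 ± 0.97 (limma unadjusted p = 0.097). Ctsk there had 48.5, 918, 1751 and 860 in loaded limbs and 1625, 1873, 981 and 4462 in control limbs, lower in 3 of 4 mice (-1.90 ± 0.86, limma unadjusted p = 0.035, adjusted p = 0.695).

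**Figure D5:**
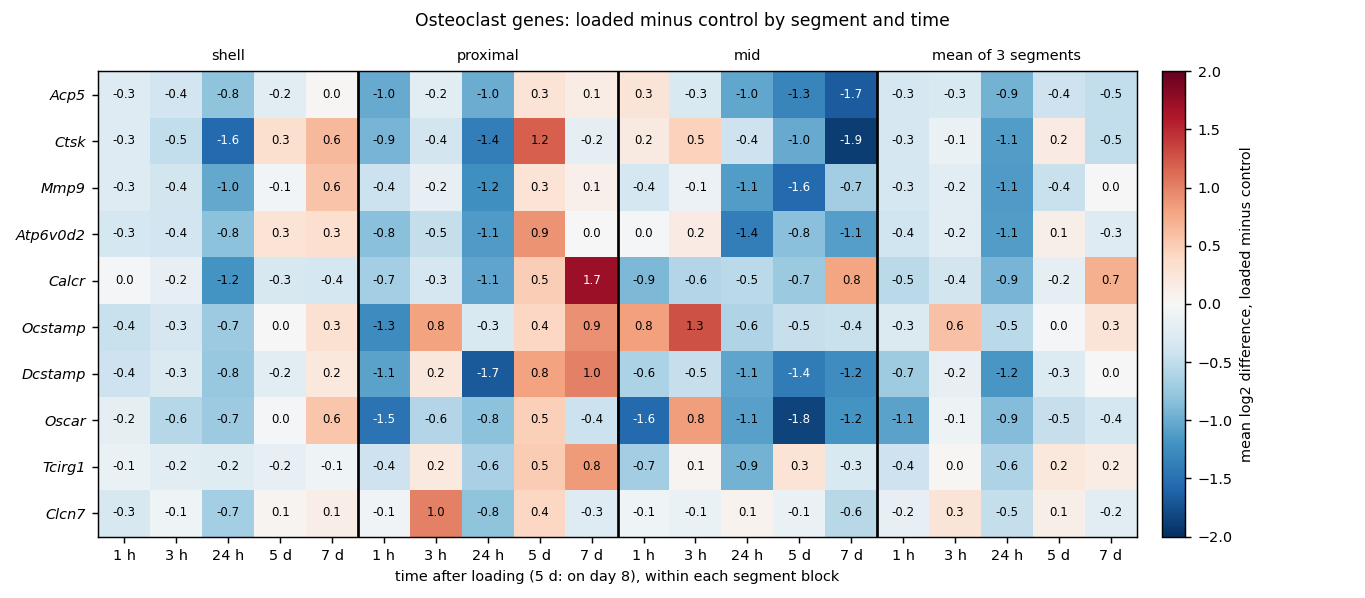
Mean log2 difference, loaded minus control, of the 10 genes (rows) at 5 times within each of 3 segments and in their average (columns), blue for lower and red for higher in loaded limbs. The 24 h columns are blue for nearly every gene, the proximal column at 5d is red for all 10, and the mid-diaphysis columns at 1 h and 5d include the libraries high in Msln.

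Averages over segments were also taken over the 5 time means of the 22 mice, with equal weight for each time. All 10 genes were then negative, against 43.1% of all genes, with a median of -0.38 against 0.03 over all genes. Acp5 was at -0.50 ± 0.15 (limma adjusted p = 0.378, lower in 16 of 22 mice), Oscar at -0.57 ± 0.21, Dcstamp at -0.47 ± 0.18 and Mmp9 at -0.43 ± 0.16 (lower in 17 of 22). At an unadjusted p under 0.05 there were 6 of 10, against 8.97% of all genes in either direction, and limma and edgeR both called 0 of the 10, with 0% of all genes called by limma. Without the 4 libraries high in Msln 9 of 10 were negative, with a median of -0.30 and 4 at an unadjusted p under 0.05, and without the 10 libraries these were 9, -0.29 and 3. F tests of whether the response differed between the 5 times called 0 of the 10 by limma, with 0% of all genes called in each segment and 0.046% in the average. Unadjusted, Ctsk and Atp6v0d2 were under 0.05 in the shell, where 3.3% of all genes were, and Acp5, Ctsk, Mmp9, Atp6v0d2 and Dcstamp in the proximal diaphysis, against 4.23% of all genes, with a smallest adjusted p of 0.894. The response over all times was also compared between segments within mice, and no gene of the 10 had a limma adjusted p below 0.675, with 0% of all genes called.

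The 10 genes did not vary as 1 block. Over the 66 control libraries centred on their segment mean, Pearson's r between pairs of the 10 ranged from -0.16 to 0.88 with a median of 0.35. Acp5, Mmp9 and Dcstamp went together, with r of 0.56 to 0.80, and so did Ctsk, Atp6v0d2 and Oscar, with r of 0.69 to 0.88. Between these 2 triplets the 9 values were 0.21 to 0.40. The triplets were picked after the values were seen, and the libraries share mice and marrow content, so these are descriptions. Without the 10 libraries that stood apart the values were 0.51 to 0.74 and 0.68 to 0.84 within and 0.10 to 0.51 between, and in loaded limbs 0.74 to 0.83 and 0.63 to 0.79 within and 0.42 to 0.68 between. Loaded limbs without the libraries that stood apart gave 0.53 to 0.67 and 0.69 to 0.79 within and 0.35 to 0.55 between. Centred on segment and time, control libraries gave 0.53 to 0.79 and 0.63 to 0.84 within and 0.27 to 0.60 between. The ranges overlapped in both of these settings. They also overlapped slightly in control limbs without the libraries that stood apart, with 0.513 as the highest value between and 0.506 as the lowest within. The control shell shows the split by mouse. In mice 1 to 5 of the 1 h group Ctsk was at 924, 882, 902, 3074 and 2628 there. Acp5 in the same 5 libraries was at 4454, 4254, 4310, 2035 and 1593, so the split also lay between mice of 1 time. At 7d Ctsk was at 3864, 2301, 1697 and 2474 there, against 502 to 1626 at 24 h, while Acp5 at 7d was at 3508, 1636, 2084 and 2954, against 3751 to 5741 at 24 h. The control limbs of different times are different mice, so the 7d and 24 h values are levels of groups and not a course in time.

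By the same measure the genes outside the 10 whose level was most like their mean, among 4688 with a mean of at least 50, included Mmp13 (r = 0.68), Sema7a (0.66), Lrp4 (0.64), Ckb (0.62), Snx10 and Tnc (0.60 each) and Arsb (0.59). Arsb encodes a lysosomal enzyme, Mmp13 a collagenase, and Ckb the brain-type creatine kinase. Without the libraries that stood apart the values were 0.73 for Mmp13, 0.66 for Sema7a, 0.56 for Lrp4, 0.57 for Ckb, 0.67 for Snx10, 0.63 for Tnc and 0.69 for Arsb.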

How the data were processed

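Cortical bone of 3 segments of both tibiae of 22 mice was measured by 3′ mRNA sequencing, 6 libraries per mouse. Per the submitters' processing notes, the authors used STAR, FastQC and DESeq2 with the mouse build mm10, with no versions. Per the file headers, the deposited table gives a normalised count (a signal value, not a raw count) for each of 23412 gene symbols, with the mouse, limb, segment and time of each library. Strand setting, counting tool and annotation are not given in the sources used here. Within each library 100% of values were whole multiples of a step, within 0.02 of a read, so reads could be recovered. Replicates are mice, and limbs and segments of a mouse were paired by the header's animal number. The deviations of paired libraries from their group means had a median r of 0.06, over 0.1 in 25 of 66 pairs. No 2 replicates agreed within sampling noise, as the lowest chi-square per degree of freedom over 228 pairs was 2.41.

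Values were taken to log2 with a pseudocount of 1, and genes at 10 or more in at least 4 libraries were kept, 13050 in all, the 10 resorption genes among them. Differences within a mouse were tested with limma 3.58.1 (R 4.3.3, moderated test, two-sided), with Benjamini-Hochberg adjustment over the 13050 genes and a threshold of 0.05. Segments were compared over 22 differences, and loading was tested as a mean per time with 1 spread shared by the 5 times. Reads were simulated from the mean levels and depths of these libraries, with a fixed dispersion and no added spread between mice or segments. Changes of 1 on the log2 scale were then recovered for 100% of 100 genes between shell and mid-diaphysis of control limbs. Recovery was 86% in the average of 3 segments at 24 h and 16% in the shell at 24 h. Unchanged genes called numbered 14, 24 and 4 in the same order. The real libraries also hold spread between mice and in marrow content, so these shares do not measure what could be found in them. Alternatives were the pseudocount, the filter, the scaling, covariates, no pairing, 1 model of all libraries, edgeR 4.0.16 and leaving out each mouse. The alternatives without libraries that stood apart and with the macrophage list as covariate were chosen after seeing the data. The p-values set a mean difference within mice against the spread of such differences between mice. For loading this spread was shared by the 5 times and is not that of the mice of 1 time. The resorption genes and the gene lists were chosen with earlier results of these data known. The 10 genes are always named. Of the other lists, members that passed, or the first 4 in list order, could be named. Named beyond this rule, after their values were seen, are Car2, C1qa and C1qb. The genes most like the 10 are the 8 with the highest r, of which 1 is not reported here. Adgre1, Hbb-bs and Hbb-bt were not analysed here, and Siglec15 and Atp6v0c did not pass the filter on low values. Of the 7 erythroid genes with counts only 5 passed this filter and were tested. Sums of a list hold all its genes with counts, also those that did not pass.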

Additional observations from a re-analysis of the deposited data

Results flagged for a closer look

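The summed level of the 10 resorption genes in each group of libraries, and the loaded minus control difference of each gene at each time (averaged over segments), gave 80 sets of 4 or 5 values, where chance would set a value apart in about 1 of 20 sets. In 2 sets, both of summed levels, a library lay far above the rest, and both came from mouse 2 at 3 h. In the library labelled mid-diaphysis of its loaded limb the 10 genes summed to 10193.6, and in that of its control limb to 13235.8. The same mouse had low sums in the libraries labelled shell, 4048.7 in the loaded and 3615.4 in the control limb. Without this mouse the shell to mid-diaphysis difference of Acp5 in control limbs was 1.71 on the log2 scale instead of 1.54, and 8 of the 10 genes passed instead of 6. Whether the segments of this mouse were exchanged was not tested.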

How the results depend on the processing

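Every loading comparison, F test and segment difference in response had 0 of the 10 genes past the threshold under every alternative run, leaving out each mouse included, which says nothing about effects smaller than this spread. Between shell and mid-diaphysis of control limbs the count of the 10 stayed at 4 to 8 against 6. Between shell and proximal diaphysis of control limbs it was 5, and 2 with no filter on low values, 3 with a mean of at least 50, 0 with the marrow covariate, 1 with the macrophage covariate, 3 without the 10 libraries, 0 in 1 model of all libraries and 2 to 6 leaving out 1 mouse. Between proximal and mid-diaphysis of control limbs the marrow covariate gave 2 against 0. In loaded limbs, shell against mid-diaphysis gave 9, and 4 with a mean of at least 50, 5 with the marrow, 3 with the muscle and 3 with the macrophage covariate, and 4 without the 4 libraries. Shell against proximal diaphysis gave 1 there, and 0 with no filter, 2 with a mean of at least 50, 0 with the marrow covariate, 0 in 1 model of all libraries and 0 to 2 leaving out 1 mouse. Proximal against mid-diaphysis gave 1 there, and 0 with no filter, with a mean of at least 50, with the muscle or macrophage covariate, without the 4 or the 10 libraries and by edgeR with either scaling, 2 with the marrow covariate, 6 in 1 model of all libraries and 0 to 2 leaving out 1 mouse.

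With no replicate block, that is without the pairing of libraries by mouse, the count of the 10 was 1 for shell against proximal diaphysis in control limbs, 0 in loaded limbs and 0 for proximal against mid-diaphysis in loaded limbs, and no other count of the 10 moved by over 1.5 times.

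Ctsk between shell and proximal diaphysis of control limbs, at -0.03, changed sign to 0.0072 with upper quartile scaling, 0.10 with the marrow, 0.0069 with the muscle and 0.042 with the macrophage covariate, 0.075 without the 10 libraries, 0.0049 by edgeR with TMM scaling, and ranged over -0.11 to 0.037 leaving out 1 mouse, positive without each of 3 mice. With the marrow covariate Clcn7 was at -0.023, Tcirg1 at -0.062, Ocstamp at -0.65 and Calcr at -0.18 in that comparison, and with the muscle covariate Clcn7 was at -0.062 between proximal and mid-diaphysis. The cause was not tested.

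The count of all genes called was 421 to 1288 against 971 for shell and mid-diaphysis of control limbs, 0 to 1339 against 850 for shell and proximal diaphysis and 6 to 222 against 26 for proximal and mid-diaphysis. In loaded limbs it was 429 to 2207 against 1386, 20 to 739 against 436 and 43 to 635 against 197. The average of segments at 7d called 1 to 243 against 16. F tests and differences in response were not run with 1 model or edgeR. Calcr, Ocstamp and Oscar, with medians of 6, 15.5 and 19 reads per library, are limited by depth.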
